A study of Mus musculus with 6 samples.

Results

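Vascular smooth muscle cells of the aortic media contract by sliding actin filaments past myosin filaments. A set of proteins that other cells of the vessel largely lack builds and controls this machinery, and loss of these proteins is the usual sign that a smooth muscle cell has left its contractile state. In smooth muscle, contraction starts when myosin light chain kinase phosphorylates the myosin light chain and ends when myosin phosphatase removes the phosphate. The genes are switched on by serum response factor and its coactivators, of which myocardin is the best known. The 10 genes described here are *Acta2*, *Actg2*, *Myh11*, *Mylk*, *Tagln*, *Cnn1*, *Smtn*, *Lmod1*, *Synpo2* and *Des*. They were found by symbol in the table of read counts, which lists 55341 gene names, and all 10 were among the 16017 genes that passed the filter on low counts.

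Aortas of 3 miRNA-26b-/- mice (libraries M2626, M2627 and M2628) and 3 miRNA-26b+/+ mice (libraries M2629, M2630 and M2631) were sequenced, with 1 library per mouse. The mice were 8 weeks old, on chow diet and on a C57BL/6 background, given as C57BL/6NCrl in the labels. The floxed miRNA-26b allele, made in embryonic stem cells of another strain, was deleted by tamoxifen in mice with CreERT2, which was then bred out, so that the deletion is not restricted to smooth muscle. Both products of the hairpin, 5p and 3p, are lost. As cell type the labels give aortic endothelium, while per the methods arch and thoracic part of the aorta were taken whole. Smooth muscle genes led the counts, as *Acta2* had the highest number of reads of any gene in all 6 libraries and *Myh11* the third highest. The question the comparison addresses here is whether the contractile genes differ between the aortas of both genotypes.

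The libraries held between 25706728 and 33345037 counts. *Mir26b*, the deleted hairpin, had 20 counts in M2630 and 0 in the other 5 libraries, so that these counts do not check the deletion. The 10 genes took up 4.29%, 3.87% and 3.49% of all counts in M2626, M2627 and M2628, and 3.80%, 3.83% and 4.52% in M2629, M2630 and M2631. The mean was 3.88% ± 0.396 (SD, n = 3) in miRNA-26b-/- and 4.05% ± 0.408 (SD, n = 3) in miRNA-26b+/+ aortas, and the difference was smaller than the spread within each genotype (exact permutation test, two-sided, p = 0.7, with 0.1 as the smallest p that 3 against 3 mice can give). In tissue of mixed cells, fewer smooth muscle cells and less RNA per cell cannot be told apart.

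Since the mice differ in this miRNA, its sequence and the words it pairs with are shown first. The capitals mark the seed, bases 2 to 8, by which a miRNA finds its targets, and the sequences are those of RefSeq for GRCm38.p6.
mmu-miR-26b-5p: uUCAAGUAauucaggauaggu
mmu-miR-26b-3p: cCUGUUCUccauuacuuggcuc
mmu-miR-26a-5p: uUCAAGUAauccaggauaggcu
The 5p strand lies at chr1:74394324-74394344 on the forward strand. The related mmu-miR-26a-5p, which the mice keep, has the same seed. A transcript paired to this seed holds the word TACTTGA (7mer-m8), ACTTGAA (7mer-A1) or both together as TACTTGAA (8mer). In the longest annotated 3′ untranslated region of each gene, none of the 10 contractile genes held the 8mer or the 7mer-m8, against 4.19% and 6.06% of 20998 genes searched. A single gene, *Synpo2*, held a 7mer-A1, which 10.98% of the genes searched held. It begins at base 4120 of an untranslated region of 5799 bases. The stretch shown lies at chr3:123108265-123108293 on the reverse strand of GRCm38, with the matching word in capitals.
Synpo2 site: gaaggaagggcACTTGAAatcaaggtcgg
A match of letters is a description and does not show that the site is used.

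None of the 10 contractile genes was called higher or lower in miRNA-26b-/- aortas. In edgeR's quasi-likelihood test, 0 of 10 had an unadjusted p under 0.05 in either direction, while 6.47% of the 16017 genes tested did, 3.07% lower and 3.4% higher. After Benjamini-Hochberg adjustment 0 of 10 passed, and of all genes tested 1 passed (0.00624%), while the smallest adjusted p among the 10 was 0.864. The libraries of the genotypes overlapped for each of the 10, whereas they did not overlap for 5.52% of all genes tested in the lower and 6.13% in the higher direction. DESeq2 and limma voom also called 0 of the 10. The log2 fold changes, miRNA-26b-/- minus miRNA-26b+/+, ranged from -0.19 to 0.04, with 7 below and 3 above 0 (48.6% of all genes tested were below 0). Their median was -0.05, and that of all genes tested was 0.01. The median of the 10 was -0.145 without M2626, 0.015 without M2631 and -0.17 without both M2626 and M2627. The 95% intervals reached from -0.53 to 0.38, so that each of the 10 intervals excluded a log2 change of 1 in either direction. A p that misses the threshold does not show that the levels are equal, and the intervals state what the data leave possible. For *Myh11* alone a single alternative crossed the threshold, given with its values.

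**Figure D1:**
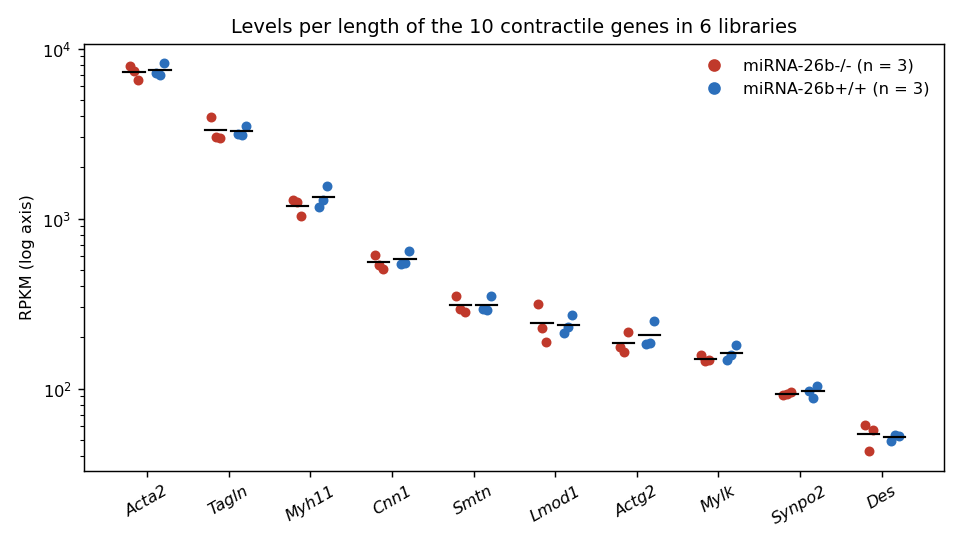
Level per length (RPKM, log axis) of the 10 contractile genes in each library, with miRNA-26b-/- in red, miRNA-26b+/+ in blue and a black bar at the mean of 3 mice. The levels run from a mean of 7355 RPKM for *Acta2* to one of 52.6 RPKM for *Des*, and the red and blue points of each gene overlap.

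The actins form the thin filament. *Acta2*, the smooth muscle alpha-actin that is the commonest actin of arteries (chr19:34241090-34255590, reverse strand, 9 exons), was measured at 17351, 16187 and 14358 CPM (counts scaled to the library total) in M2626, M2627 and M2628. In M2629, M2630 and M2631 it was at 15783, 15274 and 17960 CPM. The highest value was in a miRNA-26b+/+ and the lowest in a miRNA-26b-/- library, and the other 4 lay between. The log2 fold change was -0.05 (SE 0.12, 95% interval -0.31 to 0.21, edgeR adjusted p = 0.977).

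*Actg2*, the smooth muscle gamma-actin that is best known from gut and other visceral muscle (chr6:83512905-83536265, reverse strand), was at 272, 257 and 334 CPM in the miRNA-26b-/- libraries and at 283, 290 and 390 CPM in the miRNA-26b+/+ libraries. Both genotypes had 1 library above the rest, M2628 and M2631. With a log2 fold change of -0.18 (SE 0.16, 95% interval -0.53 to 0.17, edgeR adjusted p = 0.91), its interval had the lowest lower bound of the 10, which equals a change of -30.6%. Per length, *Actg2* made up 2.51% ± 0.58 (SD, n = 3) of both smooth muscle actins in miRNA-26b-/- and 2.68% ± 0.26 (SD, n = 3) in miRNA-26b+/+ aortas (exact permutation test, two-sided, p = 0.6). No stretch of 75 bases is shared between the longest coding transcript of *Acta2* or *Actg2* and the annotated transcripts of any other gene.

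*Myh11*, the smooth muscle myosin heavy chain and the most specific marker of these cells (chr16:14194535-14291372, reverse strand, 41 exons), was at 9705, 9555 and 7821 CPM in miRNA-26b-/- and at 8936, 9713 and 11885 CPM in miRNA-26b+/+ aortas. M2628 was the lowest and M2631 the highest, and the 4 others lay close together. The log2 fold change of -0.19 was the lowest of the 10 (SE 0.14, 95% interval -0.49 to 0.11, unadjusted p = 0.192 and adjusted p = 0.864 in edgeR). Without M2626 and M2627, an alternative chosen after seeing the data because endothelial markers were low in both, it was -0.41 with an unadjusted p = 0.0323 in edgeR, where it rested on M2628 as the only miRNA-26b-/- library, whose spread is assumed to be that of the miRNA-26b+/+ libraries. Without M2631 it was -0.06 (unadjusted p = 0.675 in edgeR) and without M2628 it was -0.09 (unadjusted p = 0.525).

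*Mylk*, which encodes the myosin light chain kinase that starts contraction (chr16:34745210-35002420, forward strand), was at 1767, 1625 and 1667 CPM in miRNA-26b-/- and at 1647, 1785 and 2026 CPM in miRNA-26b+/+ aortas. Only M2631 stood above the other libraries. Between the genotypes the log2 fold change was -0.13 (SE 0.13, 95% interval -0.40 to 0.14, edgeR adjusted p = 0.925). Of its exon bases, 4.87% overlap *E130310I04Rik* and 1.99% overlap *Gm21691*, both on the other strand, and the counting did not use strand.

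The next 4 genes encode proteins that bind or cap actin filaments. *Tagln*, the gene of the actin-binding protein transgelin or SM22-alpha (chr9:45929619-45936058, reverse strand), was at 7892, 6022 and 5920 CPM in miRNA-26b-/- and at 6240, 6187 and 6999 CPM in miRNA-26b+/+ aortas. M2626 alone was far above the other miRNA-26b-/- libraries. Its log2 fold change was 0.015 (SE 0.14, 95% interval -0.27 to 0.30, edgeR adjusted p = 0.994). The transcript *Gm48529* on the other strand covers 62.4% of the exon bases of *Tagln*, so that reads of both cannot be told apart there.

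*Cnn1*, the gene of calponin, which inhibits the ATPase of myosin on actin (chr9:22099216-22109630, forward strand), was at 1680, 1464 and 1387 CPM in miRNA-26b-/- and at 1486, 1508 and 1756 CPM in miRNA-26b+/+ aortas. *Smtn*, the gene of smoothelin, an actin-binding protein found in fully contractile cells (chr11:3517523-3540612, reverse strand), was at 1530, 1295 and 1231 CPM and at 1292, 1267 and 1542 CPM. For both genes M2626 and M2631, 1 library of each genotype, were the highest. The log2 fold change of *Cnn1* was -0.08 (95% interval -0.36 to 0.19) and that of *Smtn* -0.03 (95% interval -0.32 to 0.26). *Gm11946* on the other strand covers 16.3% of the exon bases of *Smtn*.

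*Lmod1*, the gene of leiomodin, which starts the growth of actin filaments (chr1:135324807-135368065, forward strand), was at 1234, 896 and 739 CPM in miRNA-26b-/- and at 842, 906 and 1068 CPM in miRNA-26b+/+ aortas. The highest and the lowest of the 6 values both came from miRNA-26b-/- mice, and its coefficient of variation over the libraries, 18.6%, was the largest of the 10. The log2 fold change was 0.01 (SE 0.17, 95% interval -0.36 to 0.38, edgeR adjusted p = 0.997), and the upper bound allows a level 30.5% above that of miRNA-26b+/+ aortas.

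*Synpo2*, the gene of an actin-bundling protein of the Z-disc and of dense bodies (chr3:123076519-123236149, reverse strand), was at 1192, 1216 and 1257 CPM in miRNA-26b-/- and at 1266, 1150 and 1356 CPM in miRNA-26b+/+ aortas. It was the steadiest of the 10, with a coefficient of variation of 5.75%. With a log2 fold change of -0.06 (SE 0.12, 95% interval -0.31 to 0.20, edgeR adjusted p = 0.971), it is the gene with the 7mer-A1 word shown above.

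*Des*, the gene of desmin, the intermediate filament protein of muscle (chr1:75360329-75368579, forward strand), was at 229, 160 and 215 CPM in miRNA-26b-/- and at 184, 199 and 198 CPM in miRNA-26b+/+ aortas. The miRNA-26b-/- libraries lay on both sides of the miRNA-26b+/+ libraries, which were close to each other. For *Des* the log2 fold change was 0.04 (SE 0.16, 95% interval -0.30 to 0.38, edgeR adjusted p = 0.991). *Des* is also expressed in skeletal and cardiac muscle. A list of 12 skeletal muscle markers summed to 48.9, 125 and 8.67 CPM in M2626, M2627 and M2628 and to 6.92, 15.9 and 4.87 CPM in M2629, M2630 and M2631, and 10 cardiac markers to 126, 471 and 146 CPM and to 169, 470 and 154 CPM. Of the cardiac sums, *Ryr2* alone made up 96.2, 74.4 and 126 CPM in M2626, M2627 and M2628. In M2629, M2630 and M2631 it made up 89.9, 135 and 120 CPM. *Des* was lowest in M2627, where both sums were highest, the cardiac sum with M2630 close behind. The part of other muscle in the level of *Des* was not tested.

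*Des* also lies 0.97 Mb from *Mir26b* on chromosome 1, closer than any other of the 10; *Lmod1*, on the same chromosome, is 61.0 Mb away. Within 2 Mb of *Mir26b*, 49 genes were tested and 10.2% of them had an unadjusted p under 0.05 in edgeR, against 6.47% of all genes tested. *Igfbp2*, *Gm28364* and *Stk36* were lower and *Ptprn* and *Obsl1* were higher. *Obsl1*, which encodes a cytoskeletal adaptor related to obscurin and lies 1.10 Mb from *Mir26b*, had a log2 fold change of 0.56 (edgeR adjusted p = 0.736), while *Des* beside it had 0.04. Whether the flanks of the locus differ in strain between the genotypes was not tested.

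**Figure D2:**
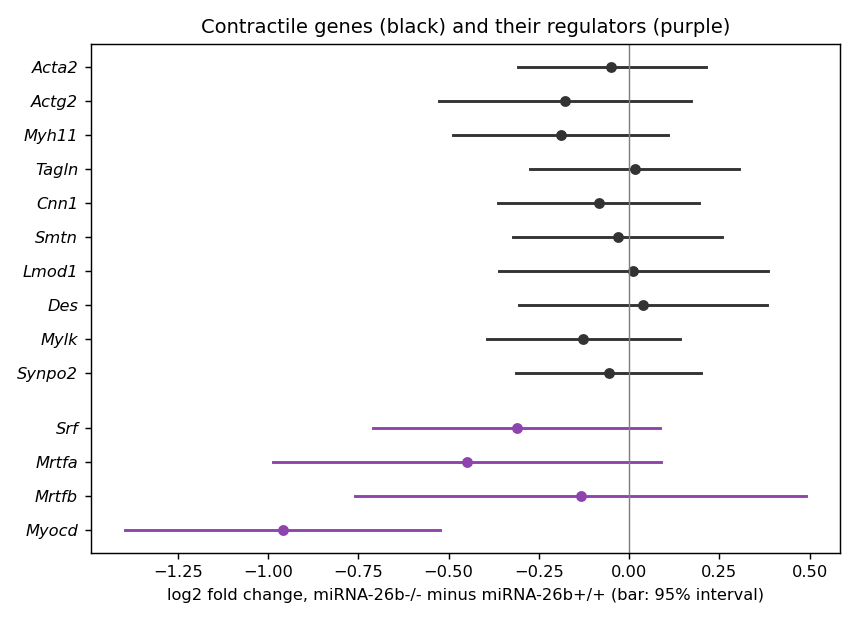
Log2 fold change (miRNA-26b-/- minus miRNA-26b+/+, 3 mice each) with its 95% interval for the 10 contractile genes in black and 4 of their transcriptional regulators in purple. All 10 black intervals include 0, and the interval of *Myocd*, from -1.40 to -0.52, does not.

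Levels of different genes were compared per length, as RPKM, which divides CPM by the length of the merged exons in kilobases. *Acta2* led with a mean of 7355 RPKM over the 6 libraries, followed by *Tagln* with 3291, *Myh11* with 1264 and *Cnn1* with 565 RPKM. *Smtn* followed at 310.3, *Lmod1* at 240.01, *Actg2* at 196, *Mylk* at 156, *Synpo2* at 94.7 and *Des* at 52.6 RPKM. The ranges over the libraries did not overlap between neighbours from *Acta2* down to *Smtn*, nor between *Mylk* and *Synpo2* or *Synpo2* and *Des*. The ranges of *Smtn* and *Lmod1*, of *Lmod1* and *Actg2* and of *Actg2* and *Mylk* did overlap, although within each library *Smtn* was above *Lmod1* and *Actg2* above *Mylk*, while *Lmod1* was above *Actg2* in 5 of 6. The length used is that of all annotated exons merged, which lowers the value of genes with many isoforms such as *Mylk*.

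The 10 genes varied with the library more than with the genotype. M2631 (miRNA-26b+/+) held the highest value of 7 of them and M2626 (miRNA-26b-/-) that of the other 3, *Tagln*, *Lmod1* and *Des*. M2628 held the lowest value of 6, M2627 of 3 and M2630 of 1. Across the 6 libraries, the Pearson correlation of log2 CPM was above 0.5 for 24 of 45 pairs and below 0 for 4, with a median of 0.54. It was highest for *Cnn1* and *Smtn* (0.97) and for *Tagln* and *Lmod1* (0.94), and lowest for *Myh11* and *Des* (-0.11). *Cnn1* had the highest median correlation with the other 9 (0.86), and *Actg2*, *Des* and *Synpo2* had the lowest (0.33, 0.33 and 0.35). These values describe 6 points that share library, depth and dissection, and CPM values of 1 library share its total.

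**Figure D3:**
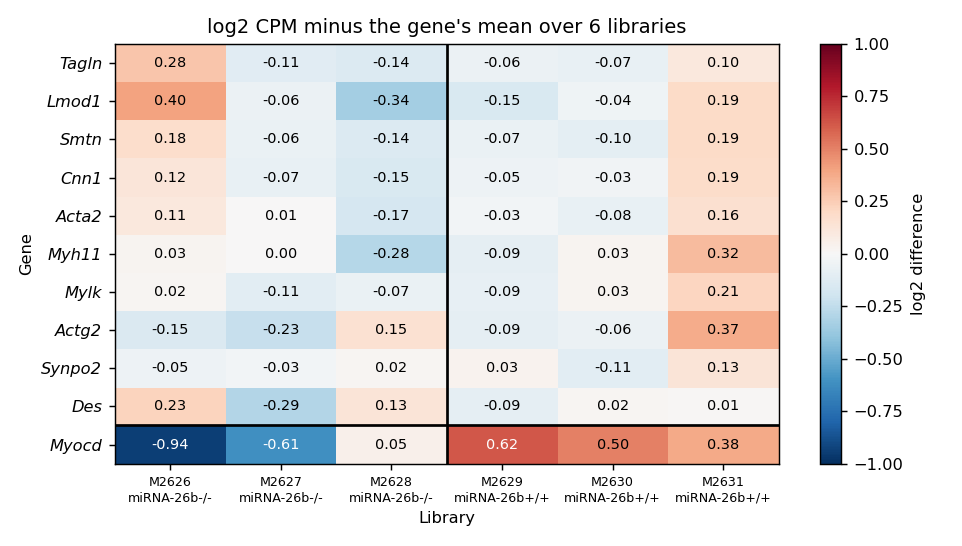
Log2 CPM of each contractile gene and of *Myocd* in each library (columns) minus the mean of that gene over the 6 libraries, with higher values in red and lower values in blue. M2631 is red for all 10 contractile genes and M2628 blue for 7 of them, and in the *Myocd* row M2628 lies near the mean, above the other miRNA-26b-/- and below the miRNA-26b+/+ libraries.

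The mean of the standardised log2 CPM of the 10 genes was compared with each of 9755 genes of at least 10 CPM. The 8 genes most like it were *Slc37a3*, *Cdc37*, *Fbxl7*, *Gm27021*, *Tead3*, *Ndufa13*, *Nif3l1* and *Dlg4*, with Pearson correlations from 0.99 down to 0.96 over 6 libraries. None of the 8 had an unadjusted p under 0.05 between the genotypes in edgeR. Their choice largely fixes this, since they were picked for likeness to a profile in which the genotypes overlap. Among so many genes and with 6 libraries, high values of this kind are common, and they are given as a description.

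*Myocd*, the gene of myocardin, which acts with serum response factor to switch on contractile genes, was lower in miRNA-26b-/- aortas at an unadjusted p. It was at 72.5, 91.1 and 144 CPM in M2626, M2627 and M2628 and at 214, 197 and 181 CPM in M2629, M2630 and M2631. All miRNA-26b-/- libraries lay below all miRNA-26b+/+ libraries. The log2 fold change was -0.96 (SE 0.20, 95% interval -1.40 to -0.52, unadjusted p = 0.000304 in edgeR), and it did not pass the adjustment over all genes (adjusted p = 0.453). The lower bound of each contractile gene's interval lay above -0.96, the estimate for *Myocd*. For *Actg2* that bound (-0.527) lay just below the upper bound of *Myocd* (-0.523). The difference between *Myocd* and the contractile genes was not itself tested. Without M2626 and M2627, the log2 fold change was -0.49 (unadjusted p = 0.0275 in edgeR). The correlation of *Myocd* with the mean profile of the contractile genes over the 6 libraries was -0.09, and that of *Srf* was 0.59.

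*Srf*, the gene of serum response factor itself, was at 103, 126 and 103 CPM in miRNA-26b-/- and at 117, 119 and 173 CPM in miRNA-26b+/+ aortas, with a log2 fold change of -0.31 (95% interval -0.71 to 0.09, edgeR adjusted p = 0.819). *Mrtfa* and *Mrtfb*, which encode coactivators related to myocardin, had log2 fold changes of -0.45 (95% interval -0.99 to 0.09) and -0.13 (95% interval -0.76 to 0.49). Of the 7 regulators examined, *Myocd* was the only one with an unadjusted p under 0.05 in edgeR, where 3.07% of all genes tested were lower. The list also holds *Elk1*, *Klf4* and *Tcf21*, with log2 fold changes of -0.47, -0.26 and 0.73. A negative log2 fold change was found for 6 of the 7, against 48.6% of all genes tested. The 7 were not split by whether they activate or repress contractile genes.

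Serum response factor binds a DNA element called the CArG box. RefSeq promoter windows, 250 bases before to 50 bases after a start site on GRCm38.p6, were found for 7 of the 10 genes. On both strands, none of the 7 held a perfect box, against 1.63% of 32851 windows. When 1 of the 6 inner bases was allowed to differ, a setting chosen after the perfect search had found none, *Acta2* held 2 boxes and the other 6 genes held none, against 9.98% of all windows with a box. The boxes begin 84 and 34 bases before the RefSeq start site of that window. The stretches shown, with the box in capitals, lie at chr19:34255438-34255467 and chr19:34255388-34255417 on the reverse strand. Both lie inside the GENCODE span of *Acta2* given above, so that the RefSeq start site is not the end of that span. They are shown because *Acta2* is the most abundant of the 10.
Acta2 distal box: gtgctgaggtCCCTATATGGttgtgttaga
Acta2 proximal box: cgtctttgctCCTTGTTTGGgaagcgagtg
These windows are short and do not cover the first introns, and no match says only that these letters are not in this window.

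The wider contractile machinery was examined with 4 lists of 57 genes, all of which were tested. In edgeR 7 were lower at an unadjusted p under 0.05 (12.3%, against 3.07% of all genes tested) and 2 were higher (3.51%, against 3.4%). None passed the adjustment, with adjusted p-values of 0.736 or more. A negative log2 fold change was found for 39 of 57 (68.4%, against 48.6% of all genes tested). The median of the 57 was -0.09, and that of all genes tested was 0.013. The genotypes did not overlap for 13 of 57 in the lower and 1 in the higher direction, against 5.52% and 6.13% of all genes tested. Among 1913 genes of at least 100 CPM, 5.59% were lower and 2.98% higher. The count of 7 changed with single libraries. It was 1 without M2627, 3 without M2631, 4 without M2630, 5 without M2626, 6 without M2629 and 10 without M2628, and the count of 2 higher genes was 1 without M2626, M2627, M2629 or M2630, each left out alone.

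Of 16 genes of the dense plaque, where actin filaments are tied to the membrane, and of intermediate filaments, 4 were lower and 0 higher by edgeR's unadjusted p, where 3.07% and 3.4% of all genes tested were. *Itgb1*, the gene of the integrin beta-1 chain, was at 2228 ± 110 CPM (SD, n = 3) in miRNA-26b-/- and at 2718 ± 39.1 CPM (SD, n = 3) in miRNA-26b+/+ aortas, a log2 fold change of -0.30 with an adjusted p = 0.736 in edgeR. *Vim*, the gene of vimentin, the intermediate filament protein that smooth muscle shares with fibroblasts and endothelium, was at 4351 ± 269 and 5248 ± 191 CPM, a log2 fold change of -0.29. *Itga5*, the fibronectin receptor chain that pairs with integrin beta-1, and *Sorbs2*, an adaptor of adhesion sites, had log2 fold changes of -0.46 and -0.41. The genotypes did not overlap, in the lower direction, for 5 of the 16 genes (5.52% of all genes tested), among them *Itgb1*, *Vim* and *Sorbs2*, and they did for *Itga5*.

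Of 23 other genes of the thin filament and of actin binding, 3 were lower and 0 higher, beside the same 3.07% and 3.4% of all genes tested. *Actn1*, the gene of alpha-actinin 1, which crosslinks actin filaments, was at 1485, 1489 and 1498 CPM in miRNA-26b-/- and at 1709, 1778 and 1990 CPM in miRNA-26b+/+ aortas, a log2 fold change of -0.31. *Cnn3*, a calponin of non-muscle cells, had a log2 fold change of -0.32 and *Pdlim3*, a partner of alpha-actinin, one of -0.35. For these 3 genes and 3 more of the 23 the genotypes did not overlap in the lower direction (5.52% of all genes tested). The adjusted p in edgeR was 0.736 for *Actn1*, *Cnn3* and *Pdlim3*. For the 3 more it was 0.823 (*Actn4*), 0.828 (*Flna*) and 0.96 (*Cald1*). *Cnn1*, the calponin of smooth muscle, had a log2 fold change of -0.08, and the difference between *Cnn1* and *Cnn3* was not tested.

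Of 9 other genes of the thick filament and its light chains, 2 were higher and 0 lower, where 3.4% and 3.07% of all genes tested were. The 2 higher genes were *Mylk2* and *Mylk3*, the light chain kinases of skeletal and cardiac muscle. *Mylk2* was at 40.0, 30.3 and 41.1 CPM in miRNA-26b-/- and at 23.0, 17.7 and 32.0 CPM in miRNA-26b+/+ aortas, so that the genotypes overlapped. *Mylk3* had 1, 63 and 88 counts in miRNA-26b-/- and 0 counts in each miRNA-26b+/+ library, so that it passed the filter on low counts only through the group in which it is high, and its call carries no weight. Of the skeletal muscle markers, 9 of 11 tested were higher and 0 lower by edgeR's unadjusted p (3.4% and 3.07% of all genes tested). Several of the 9 were also at 0 in all miRNA-26b+/+ libraries and passed the filter in the same way. The skeletal muscle sums given beside *Des* were highest in M2627 and M2626, and that of M2628 was 8.67 CPM. *Mylk3* was highest in M2628, and so was *Mylk2*, with M2626 close behind. The part of skeletal muscle in the level of *Mylk2* and *Mylk3* was not tested. The smooth muscle light chain gene *Myl9* was at 3192 ± 837 and 2891 ± 394 CPM (SD, n = 3 each), with a log2 fold change of 0.13 (95% interval -0.25 to 0.50).

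**Figure D4:**
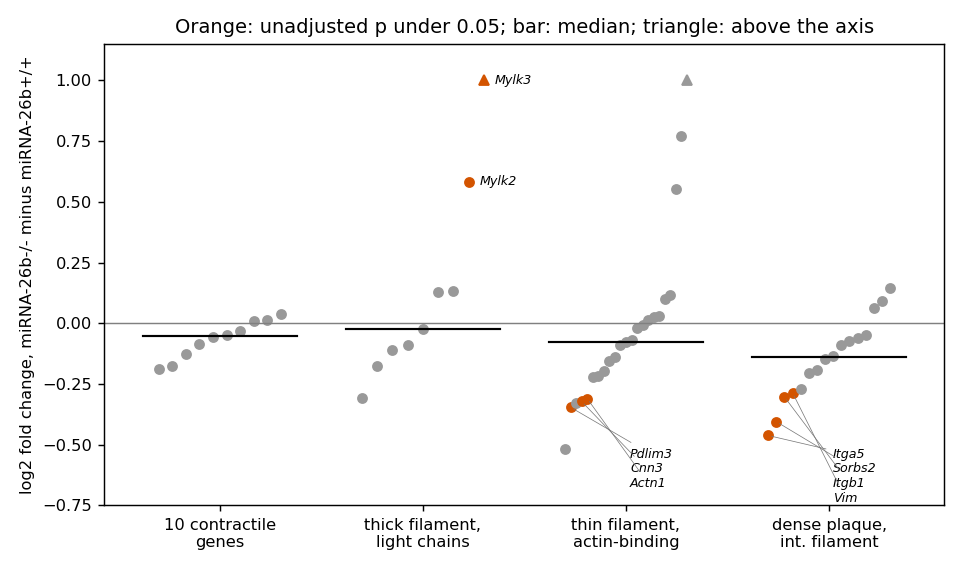
Log2 fold change (miRNA-26b-/- minus miRNA-26b+/+) of each gene in the 10 contractile genes and 3 of the wider lists, with genes of unadjusted p under 0.05 in orange, medians as black bars and values above 1 drawn as triangles at 1. The 10 contractile genes hold no orange point, and 7 of the orange points lie below 0 in the thin filament and dense plaque lists.

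Markers of other cells varied between the libraries in patterns of their own. Endothelial markers (10 genes) summed to 506, 540.2 and 1803 CPM in miRNA-26b-/- and to 1275, 1700.1 and 1477 CPM in miRNA-26b+/+ aortas. This sum was lowest in M2626 and M2627, the libraries in which *Myocd* was also lowest. *Pecam1* and *Vwf* led it, at 184 and 103 CPM in M2626 and at 724 and 610 CPM in M2628. Not every marker of the list had this order. *Kdr* was at 21.9 and 29.8 CPM in M2626 and M2627 and was lowest in M2628 (8.92 CPM). Fibroblast markers (10 genes) ran from 8881 to 15856 CPM and were highest in M2628, where 6 of the 10 contractile genes were lowest. Schwann cell markers summed to 331 to 486 CPM in miRNA-26b-/- and to 236 to 293 CPM in miRNA-26b+/+ aortas. *Pmp22* alone made up 290, 314 and 223 CPM in M2626, M2627 and M2628 and 196, 186 and 208 CPM in M2629, M2630 and M2631. By edgeR's unadjusted p, 6 of the 8 tested were higher and 1, *Egr2*, was lower (3.4% and 3.07% of all genes tested). Markers of pericytes and fetal smooth muscle summed to 3884 to 4643 CPM in miRNA-26b-/- and to 4539 to 5199 CPM in miRNA-26b+/+ aortas. That list is thus not one of other cells alone. The part of cell makeup in the values of *Myocd* and of the contractile genes was not tested.

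**Figure D5:**
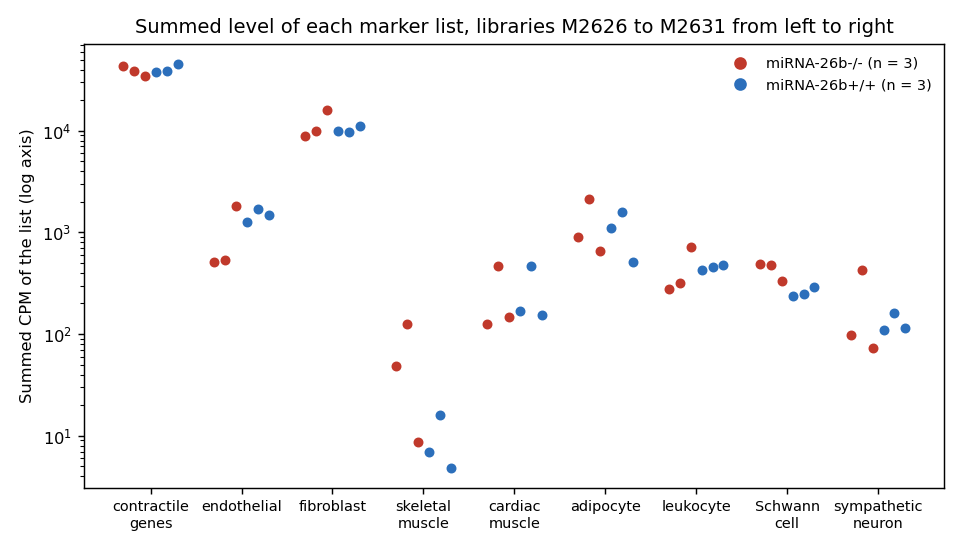
Summed CPM (log axis) of the 10 contractile genes and of 8 marker lists in each library, M2626 to M2631 from left to right within each list, with miRNA-26b-/- in red and miRNA-26b+/+ in blue. The sum of the contractile genes stays between 34930 and 45179 CPM, while the endothelial sum ranges from 506 to 1803 CPM and the skeletal muscle sum from 4.87 to 125 CPM.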

How the data were processed

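The reads were aligned by the authors with STAR to mm10 (GRCm38). They deposited read counts per gene name, made per the file headers with featureCounts 1.6.4 over exons, unstranded, where a read on exons of more than 1 gene counts for all of them. The header names release M21 of GENCODE and the methods another. The deposited table also gives the merged exon length, used for RPKM. A second deposited table, with log2 CPM, the authors' fold changes and p-values, was not used. The labels gave the genotype of each library and no batch, and each library is 1 mouse.

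Genes were kept where their counts summed to 2 or more and exceeded 1 CPM in at least 2 libraries. After TMM scaling, edgeR 4.0.16 (R 4.3.3) fitted the quasi-likelihood model (prior count 0.125, current rather than earlier method), with Benjamini-Hochberg adjustment over all 16017 genes. CPM values printed are scaled to the library total alone. Errors are SD over 3 mice. Single sums were compared by the exact permutation test. Named genes are the 10 contractile genes, genes of the other lists with unadjusted p under 0.05 or, failing these, of highest CPM, the 8 genes most like the contractile profile and the genes called near *Mir26b*. *Srf*, *Mrtfa*, *Mrtfb*, *Elk1*, *Klf4*, *Tcf21*, *Pecam1*, *Vwf*, *Kdr*, *Myl9*, the share of *Actg2* and the relaxed CArG search were chosen after values were seen. The members and lists were chosen with earlier results of these data known. Of the 4 wider lists, 1 enters the counts over all 57 genes and is not reported on its own here. The procedure was tested on simulated data. Alternatives were normalization, filter, prior count, test (DESeq2 1.42.0, limma voom 3.58.1, likelihood ratio) and leaving out libraries. Sequences and promoter windows came from RefSeq, positions and untranslated regions from GENCODE M21.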

Additional observations from a re-analysis of the deposited data

How the results depend on the processing

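Over 19 alternatives, no contractile gene passed the adjustment, and 0 of the 10 had an unadjusted p under 0.05, except that 1 (*Myh11*, -0.41) was lower without M2626 and M2627. Of 190 log2 fold changes of the 10 genes under alternatives, 169 kept their sign and their side of the threshold and 20 changed sign. With limma voom, *Tagln* was at -0.001 and *Lmod1* at -0.019. Without M2626 and M2627, *Actg2* was at 0.027, *Tagln* at -0.159 and *Lmod1* at -0.376. Leaving out 1 library at a time gave log2 fold changes from -0.121 to 0.026 for *Acta2*, from -0.295 to -0.011 for *Actg2*, from -0.289 to -0.062 for *Myh11*, from -0.176 to -0.001 for *Cnn1*, from -0.207 to -0.041 for *Mylk*, from -0.141 to 0.093 for *Tagln*, from -0.138 to 0.066 for *Smtn*, from -0.223 to 0.17 for *Lmod1*, from -0.074 to 0.184 for *Des* and from -0.106 to 0.003 for *Synpo2*. *Myocd* stayed lower at an unadjusted p under 0.05 in all 19. The wider lists held 12 lower genes with limma voom, 10 with DESeq2, 2 with the likelihood ratio test, 1 without M2627 and M2630, 3 without M2626 and M2627 and 1 to 10 with 1 library left out. They held 1 higher gene with DESeq2, 0 without M2627 and M2630 and 1 to 2 with 1 library left out. The cause of these changes was not tested. No paired analysis was possible because the labels give no replicate numbers that the genotypes share. With 3 mice per genotype, the interval given for each gene states which changes the data leave possible.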
